A study of Mus musculus with 6 samples.

Results

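The genes of the lysosome and of autophagy were followed in livers of mice fed either of 2 low-protein diets. The animals were males of the inbred strain BALB/cCrSlc. The set of 40 genes was fixed by name, as lysosomal enzymes, membrane and pump components, a master regulator and autophagy factors. Every probe set that the array's annotation gave to exactly 1 of these genes was taken. All 40 were found among 18193 genes on the array, through 96 of 45037 probe sets.

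Both were AIN-93M diets, a purified formula that maintains grown rodents. The control diet, 10C, contained 10% casein, and the test diet, 6C+4CP, contained 6% casein with 4% collagen peptide from fish. Casein and collagen peptide therefore changed at the same time and cannot be told apart. The mice ate the diets for 10 weeks and were 17 weeks old at sampling, which followed a fast of 3 h. Each diet had 12 mice, of which 3 of medium food efficiency (weight gain per food intake) gave a piece of liver and 1 Affymetrix 3' expression array each. A further diet group counted in the design text is not analysed here.

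Lysosomes are acidic vesicles in which cathepsins and other hydrolases break down proteins, glycans and lipids, and a proton pump in their membrane keeps them acidic. Autophagy encloses cytoplasm in a double membrane, the autophagosome, marked by proteins of the LC3 and GABARAP families, and delivers it to the lysosome. Liver is a classic tissue of autophagy, where fasting and shortage of amino acids raise it. The transcription factor TFEB binds an E-box in promoters of many lysosomal genes and raises them together.

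The values are the deposited ones, which were read as log2, so a difference of 1 would be a ratio of geometric means of 2. Most probe sets held 1 value shared by all 6 mice: 7791 of 45037 (17.3%) ranged over more than 0.01 and are called varying. Genes without a varying probe set therefore carry no information on differences between mice. One mouse stood apart from its diet: over the varying probe sets, which are not independent of each other, 10C replicate 3 had a correlation of 0.985 with 6C+4CP replicate 2 and of 0.971 and 0.973 with the other 10C mice. 10C replicate 2 had the highest Saa1, an acute phase protein (14.03, against 7.54 to 9.13 in the other mice). Of 7 hepatocyte markers measured, Alb, Ttr, Apoa1, Cyp2e1 and Cps1 lay above 13 and Tat between 10.71 and 12.28 in every mouse. Ass1 did not vary and stood at 6.72 in its brightest probe set given to 1 gene alone, against array medians of 6.31. That probe set need not show the level of the gene. Apoa1 and Cps1 had lower means in 6C+4CP without overlap (-0.11, SE 0.024, and -0.27, SE 0.041), and Ttr a higher one (0.032, SE 0.012). Markers of cholangiocytes (4 measured), neutrophils (5 measured) and sinusoidal endothelium (6 measured) had no varying probe set. Among 13 Kupffer cell and macrophage markers 9 varied, and Cd68, Marco, Timd4 and Cd163 did not. Of 4 B cell markers Ighm varied, with a difference of -0.66 (SE 0.17) and no overlap. The part of cell makeup in the results below was not tested. In bulk liver, fewer cells of a type and less RNA per cell cannot be told apart.

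The promoters are shown first because an E-box was present in 15 of the 34 that could be read. RefSeq promoters (GRCm38.p6) were matched by symbol for 34 of the 40 genes and read over the 250 bases before the start of transcription. The E-box CACGTG, a palindrome that reads the same on both strands, was present in 15 of the 34 (44.1%), against 8.73% of 14452 genes on the array with a promoter in the table. The longer palindrome TCACGTGA, which contains the first, was present in 6 of 34 (17.6%), against 1.32%. By role, CACGTG was found in 8 of 16 lysosomal enzyme genes, 4 of 8 genes of membrane, pump and regulators, and 3 of 10 autophagy genes. A match describes letters, not a bound site.

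The windows of 30 bases with the longer palindrome, in capitals, are printed 5′ to 3′ on the strand of the gene. Ctsa lies at chr2:164833743-164833772 (plus strand), Ctsd at chr7:142387908-142387937 (minus strand), and Mcoln1, the lysosomal calcium channel, at chr8:3500462-3500491 (plus strand). Atp6v1a lies at chr16:44139373-44139402 (minus strand) and Atg3 at chr16:45158746-45158775 (plus strand). The windows of Gla lie at chrX:134601215-134601244 and chrX:134601182-134601211 (minus strand).
Ctsa: gaacaatgagcaaactgTCACGTGAtgcag
Ctsd: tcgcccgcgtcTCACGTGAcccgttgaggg
Mcoln1: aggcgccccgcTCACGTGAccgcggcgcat
Atp6v1a: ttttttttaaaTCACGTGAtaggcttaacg
Atg3: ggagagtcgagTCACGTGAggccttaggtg
Gla, farther from the start: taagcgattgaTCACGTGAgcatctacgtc
Gla, nearer to the start: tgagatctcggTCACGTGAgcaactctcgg

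Lamp1, a main protein of the lysosomal membrane, had 4 copies of the shorter E-box between positions -61 and -15 from its start, none of them inside the longer one. The first and the last lie in chr8:13159088-13159117 and chr8:13159131-13159160 (plus strand), each with that E-box in capitals. The window of the last also holds, in lower case, the E-box at -28.
Lamp1, first: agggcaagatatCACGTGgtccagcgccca
Lamp1, last: ggcacgtgaccacatCACGTGcggaacgga

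**Figure D1:**
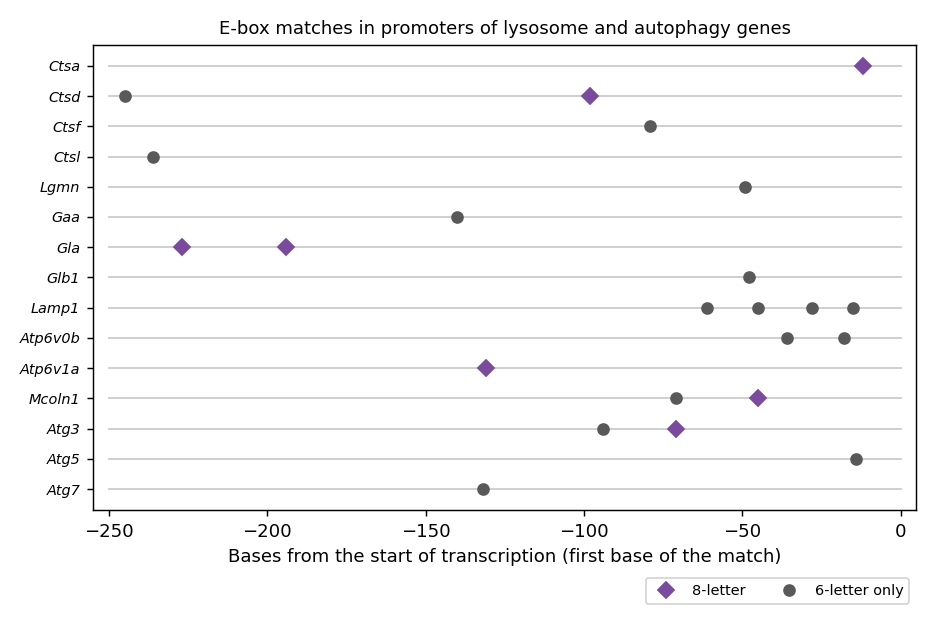
Positions of E-box matches (first base of the match, in bases from the start of transcription) in the 15 genes of the set that had one; diamonds are matches inside the 8-letter palindrome, circles are matches of the 6 letters alone. Lamp1 carries 4 matches between -61 and -15, and Gla both of its matches inside the longer palindrome.

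Map1lc3b, which of the 40 genes had the widest difference between the diets in the brightest varying probe set, had no CACGTG in this window. Its 250 bases, chr8:121590188-121590437 (plus strand), are given for comparison and have no capitals because neither motif was found.
Map1lc3b: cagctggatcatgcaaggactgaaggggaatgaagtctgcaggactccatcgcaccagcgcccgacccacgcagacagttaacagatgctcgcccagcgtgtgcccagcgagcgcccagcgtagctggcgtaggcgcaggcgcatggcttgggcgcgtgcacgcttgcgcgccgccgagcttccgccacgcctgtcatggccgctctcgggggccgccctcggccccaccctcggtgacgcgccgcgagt

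Of the 40 lysosome and autophagy genes 27 had varying values, and their estimated differences between 6C+4CP and 10C were mostly small. The other 13 carry no comparison of the diets. None of the 40 genes passed the test, and the one gene whose mice did not overlap in its brightest varying probe set was Map1lc3b, with higher values in 6C+4CP. Lysosomal enzymes and autophagy factors both lay close to no difference: the median difference was 0.019 over 11 varying enzyme genes and 0.026 over 10 varying autophagy genes. The median over all 5057 varying genes was -0.0036.

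Of the 96 probe sets 44 varied (45.8%), and of the 40 genes 27 had a varying probe set (67.5%, against 27.8% of all genes). The genes were bright, with a median percentile of 90.8 among all genes by their brightest probe set. The varying probe set of smallest range belonged to Wipi1 (0.043), and the widest range among those not counted as varying was 0.00051 (Gusb), so no member lay near the limit of 0.01. A gene is described below by its brightest varying probe set.

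With limma over all probe sets, 0 of the 96 passed at an adjusted p under 0.05, against 0.242% of all 45037, and over all genes 0 of the 40, against 0.253%. Of the 109 probe sets called in all, 6 varied. In a fit to varying probe sets alone 0 of 44 passed, against 0% of 7791, and 0 of 27 genes, against 0.0395% of 5057. At an unadjusted p under 0.05 that fit held 3 of the 44 (6.82%), against 14.6% of all varying probe sets. The mice of the diets did not overlap in 3 higher and 2 lower of the 44 varying probe sets, against 10.8% higher and 9.11% lower among all varying probe sets (5 of 44, or 11.4%, against 19.9% in either direction). By gene it was 1 higher and 0 lower of 27, against 10.9% and 8.84% (19.8% in either direction).

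The sizes were small as well. Among the 27 varying genes 17 had higher and 10 lower means in 6C+4CP (63% higher, against 48.1% of all varying genes). A ratio of 1.2 or more was reached by 2 of the 27 (7.41%), Map1lc3b and Lipa, against 18.4% of all varying genes. A ratio of 1.5 was reached by 0 of the 27, against 5.16%. The 95% interval of the difference lay within 0.5 either way for 19 of the 27, and within 1 for all 27.

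**Figure D2:**
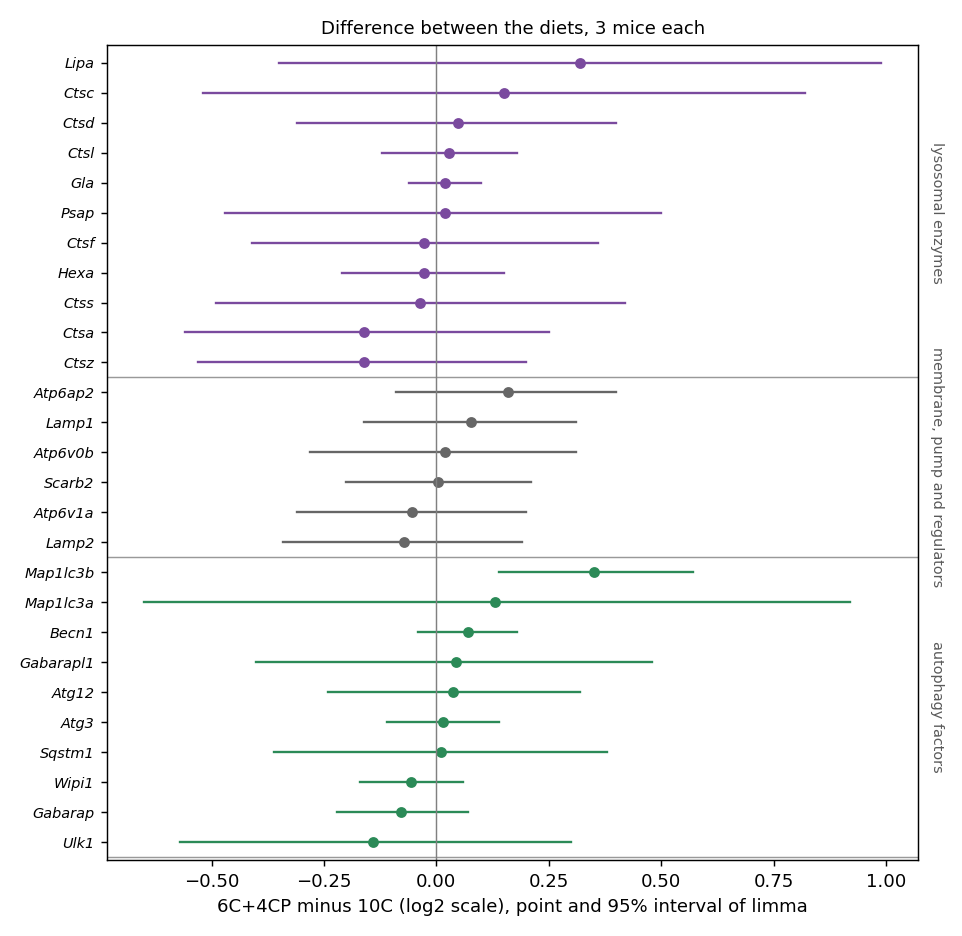
Difference 6C+4CP minus 10C on the log2 scale for the 27 genes with varying values, with the 95% interval from limma over all probe sets (3 mice per diet), unadjusted for the number of genes. The interval of Map1lc3b, 0.14 to 0.57, lies above 0, and those of the other 26 span 0.

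Among autophagy genes the conjugation system comes first, the proteins that are attached to the growing membrane and the enzymes that attach them. Map1lc3b encodes LC3B, the protein most used as a marker of autophagosomes. It read 10.28, 10.29 and 10.08 on the 10C diet, and on 6C+4CP it read 10.50, 10.59 and 10.62. All 3 mice fed 6C+4CP lay above all 3 fed 10C, with means of 10.22 ± 0.12 (SD, n = 3) and 10.57 ± 0.064. The difference was 0.35 (SE 0.078), a ratio of 1.28, which did not pass limma over all genes (adjusted p = 0.516) or over varying genes (adjusted p = 0.152); over all alternatives limma's adjusted p ran from 0.152 to 0.757. Without 10C replicate 3, the lowest mouse, it was 0.28.

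A second probe set of Map1lc3b gave the same order of the diets. It read 10.03, 10.15 and 10.04 in 10C and 10.44, 10.28 and 10.31 in 6C+4CP, and the means differed by 0.27 (SE 0.061). The mouse at the top was 6C+4CP replicate 1 here and replicate 3 in the first probe set. The other 2 probe sets of this gene, at 9.22 and 6.33, did not vary, and with the mean of all 4 the difference was 0.16.

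The relatives of LC3B did not separate the diets. Map1lc3a, which encodes LC3A, read 9.15, 9.50 and 9.98 in 10C and 9.39, 9.96 and 9.67 in 6C+4CP. Its range within each diet was wider than the difference of 0.13 (SE 0.29), with 10C replicate 3 and 6C+4CP replicate 2 at the top. Gabarap, a sister protein of the LC3 group, read 10.57, 10.65 and 10.70 in 10C and 10.50, 10.63 and 10.55 in 6C+4CP, and the means differed by -0.079 (SE 0.053) with overlap. Gabarapl1 gave 0.043 (SE 0.16) in its brightest probe set and 0.18 (SE 0.095) in the other, both with overlap.

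The other varying members of the conjugation system were as close. Atg12, the ubiquitin-like protein joined to ATG5, read 8.07, 7.96 and 8.03 in 10C and 7.89, 8.05 and 8.24 in 6C+4CP, so that the 6C+4CP mice spanned the whole 10C range. Atg3, the enzyme that hands LC3 to its lipid, differed by 0.015 (95% interval -0.11 to 0.14), and by -0.0056 in a dimmer probe set. Gabarapl2, Atg5 and Atg7 had no varying probe set and stood at 9.46, 8.50 and 7.03 in their brightest one.

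The receptor, initiation and nucleation factors all varied. Sqstm1, the cargo receptor p62, read 9.56, 9.66 and 9.93 in 10C and 9.58, 9.87 and 9.73 in 6C+4CP. Its lowest mouse was replicate 1 in both diets, and the difference was 0.0098 (SE 0.14). Becn1, a subunit of the lipid kinase complex that starts the membrane, read 8.87, 8.88 and 8.78 in 10C and 8.95, 8.86 and 8.94 in 6C+4CP. Of its mice fed 6C+4CP 1 lay inside the 10C range, and the difference was 0.071 (SE 0.041), or 0.00062 in a second probe set.

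Ulk1, the kinase that starts autophagy, and Wipi1, which binds lipid on the forming membrane, had lower means in 6C+4CP. Ulk1 read 7.97, 8.39 and 8.05 in 10C and 7.95, 8.19 and 7.87 in 6C+4CP, and the means differed by -0.14 (SE 0.16). The single highest mouse was 10C replicate 2, and without it the difference was -0.0089. Wipi1 read 7.87, 7.83 and 7.86 in 10C and 7.78, 7.74 and 7.87 in 6C+4CP, and the means differed by -0.056 (SE 0.041), with 6C+4CP replicate 3 level with the highest 10C mouse. In a dimmer probe set of each the diets did not overlap, with differences of -0.054 (SE 0.025) for Ulk1 and -0.026 (SE 0.011) for Wipi1. There the nearest mice of both diets read alike at 2 decimals, 6.66 for Ulk1 and 6.99 for Wipi1.

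**Figure D3:**
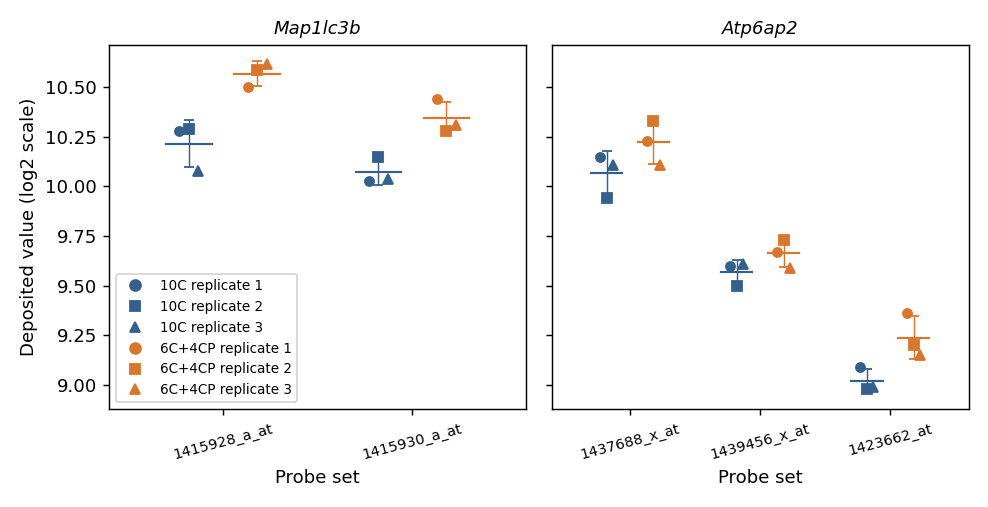
Deposited values (log2 scale) of the varying probe sets of Map1lc3b and Atp6ap2 in each mouse, blue for 10C and orange for 6C+4CP; horizontal lines are means and bars are 1 SD (n = 3). Both probe sets of Map1lc3b and the dimmest of Atp6ap2 show the diets apart, and the brighter probe sets of Atp6ap2 show them overlapping.

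Among the cathepsins, the proteases of the lysosome, and legumain, 7 of 11 varied, 3 with higher and 4 with lower means and 0 without overlap. Ctsz read 10.44, 10.80 and 10.51 in 10C and 10.39, 10.58 and 10.31 in 6C+4CP. Replicate 2 was the highest mouse in both diets, and the difference of -0.16 (SE 0.13) was smaller than the SD of 0.19 in 10C. Its other varying probe sets differed by -0.13 and, in the dimmest, 0.015. Ctsa, the protective protein that stabilises lysosomal glycosidases, read 8.68, 8.88 and 9.09 in 10C and 8.57, 8.73 and 8.89 in 6C+4CP, which is also a difference of -0.16 (SE 0.15) with overlap.

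Ctsc, the dipeptidyl peptidase that activates granule proteases, read 9.30, 8.94 and 9.72 in 10C and 9.35, 9.38 and 9.68 in 6C+4CP. The mice fed 6C+4CP lay within the 10C range, and the 95% interval of the difference ran from -0.52 to 0.82. Ctsl, a cysteine protease and the brightest varying cathepsin, read 11.87, 11.73 and 11.69 in 10C and 11.81, 11.76 and 11.79 in 6C+4CP. Its difference of 0.028 had a narrow interval, -0.12 to 0.18.

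The other varying cathepsins were Ctsd, the main aspartic protease (0.048, SE 0.13), Ctsf (-0.028, SE 0.14) and Ctss, which trims the invariant chain in antigen-presenting cells (-0.037, SE 0.17). Ctsb, Ctsh, Ctso and Lgmn had no varying probe set, with shared values of 10.55, 10.76, 9.21 and 6.86. The values of Ctsb and Ctsh, which were among the brighter members, thus carry no comparison of the diets.

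Ctss and Ctsc are also expressed in macrophages, so the Kupffer cell markers are given beside them. The mean over the 9 varying markers ran from 8.16 to 8.60 in 10C and from 7.92 to 8.47 in 6C+4CP. Of the 9 markers 8 had lower and 1 higher means in 6C+4CP, with a median difference of -0.19 and overlap in each. By mouse, 8 were highest in 10C replicate 3, 8 were lowest in 6C+4CP replicate 2, and all 9 were highest within 6C+4CP in replicate 3. Ctsc was highest in replicate 3 of each diet. Ctss had the order of the marker mean among the 6C+4CP mice, with replicate 3 highest and replicate 2 lowest. Among the 10C mice replicate 2 was lowest in both, and the highest was replicate 1 for Ctss and replicate 3 for the marker mean. The part of macrophages in these values was not tested.

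Of the other hydrolases and their activator 4 of 8 varied, with 3 higher and 1 lower mean. Lipa, the acid lipase that frees cholesterol and fatty acids from lipoprotein lipid, read 9.70, 9.81 and 10.41 in 10C and 10.07, 10.37 and 10.43 in 6C+4CP. 10C replicate 3 lay among the mice of the other diet, and the other 10C mice lay below all of them. The difference was 0.32 (SE 0.24), a ratio of 1.25, and it was 0.54 without 10C replicate 3 and 0.18 without 10C replicate 1. Its 3 probe sets gave 0.32, 0.48 and -0.028, and limma over all genes gave an adjusted p of 0.837.

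Psap, the precursor of the saposins that help hydrolases reach lipids, read 9.71, 9.78 and 10.16 in 10C and 9.73, 10.12 and 9.87 in 6C+4CP. The means differed by 0.019 (SE 0.18), and the spread within each diet was many times larger. Hexa, a subunit of beta-hexosaminidase, read 8.44, 8.41 and 8.58 in 10C and 8.38, 8.44 and 8.53 in 6C+4CP, with replicate 3 highest in both diets. Gla, alpha-galactosidase A, varied only in a dim probe set that read 6.10, 6.09 and 6.01 in 10C and 6.10, 6.07 and 6.08 in 6C+4CP. Gaa, Glb1, Gusb and Asah1, which digest glycogen, galactosides, glucuronides and ceramide, had no varying probe set (7.53, 7.21, 7.69 and 8.18).

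The membrane proteins of the lysosome were among the brightest members. Lamp1 read 11.63, 11.70 and 11.87 in 10C and 11.73, 11.90 and 11.79 in 6C+4CP, and the means differed by 0.076 (SE 0.085) with overlap. Lamp2, which also serves as receptor of chaperone-mediated autophagy, read 11.71, 11.68 and 11.89 in 10C and 11.56, 11.70 and 11.81 in 6C+4CP. Its lowest and highest mice belonged to different diets, 6C+4CP replicate 1 and 10C replicate 3, and its 3 varying probe sets gave -0.073, 0.032 and 0.042. Scarb2, which carries glucocerebrosidase to the lysosome, read 11.02, 10.92 and 10.91 in 10C and 11.02, 11.02 and 10.82 in 6C+4CP, and the means differed by 0.0043 (SE 0.074).

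Components of the proton pump came next. Atp6ap2, an accessory protein of the pump also known as the prorenin receptor, read 10.15, 9.94 and 10.11 in 10C and 10.23, 10.33 and 10.11 in 6C+4CP. 6C+4CP replicate 3 lay inside the 10C range, and the difference was 0.16 (SE 0.090; limma over all genes, adjusted p = 0.732). All 3 probe sets had higher means in 6C+4CP, and in the dimmest, with 9.09, 8.98 and 8.99 against 9.36, 9.20 and 9.15, the diets did not overlap. That probe set differed by 0.22 (SE 0.074; limma over all probe sets, adjusted p = 0.704).

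The catalytic subunit Atp6v1a read 8.51, 8.45 and 8.31 in 10C and 8.43, 8.23 and 8.45 in 6C+4CP, and the means differed by -0.054 (SE 0.092) with overlap. A second probe set of Atp6v1a differed by 0.019 (SE 0.058). Atp6v0b, of the membrane part of the pump, read 7.53, 7.83 and 7.86 in 10C and 7.69, 7.80 and 7.79 in 6C+4CP, with all mice fed 6C+4CP inside the 10C range. Mcoln1 and the regulator Tfeb had no varying probe set (7.55 and 6.92), so these values give no comparison of Tfeb itself.

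Set beside the promoters, the 9 varying genes with a CACGTG had differences between -0.16 and 0.08 with a median of 0.019. The 15 varying genes with a promoter but without that motif had differences between -0.16 and 0.35 with a median of 0.0043.

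Single mice set the order of many members. 10C replicate 3 was the highest of its diet in 14 of the 27 varying genes (51.9%, against 31.2% of all varying genes), 7 of them among the 11 enzymes. 10C replicate 2 was the highest of its diet in 4 (14.8%, against 42.2%). The median deviation of the enzyme genes from their means was -0.093, -0.044 and 0.14 on 10C, and on 6C+4CP it was -0.081, -0.0018 and 0.066. For the autophagy genes it was -0.063, -0.071 and 0.021 in 10C and -0.11, 0.06 and 0.053 in 6C+4CP. The mice of the diets overlapped in both, and the SD within a diet, 0.10 for enzymes and 0.078 for autophagy genes, exceeded each group's median difference. Without 10C replicate 3 the medians were 0.024 and 0.043, and without 10C replicate 2 they were -0.033 and -0.014.

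**Figure D4:**
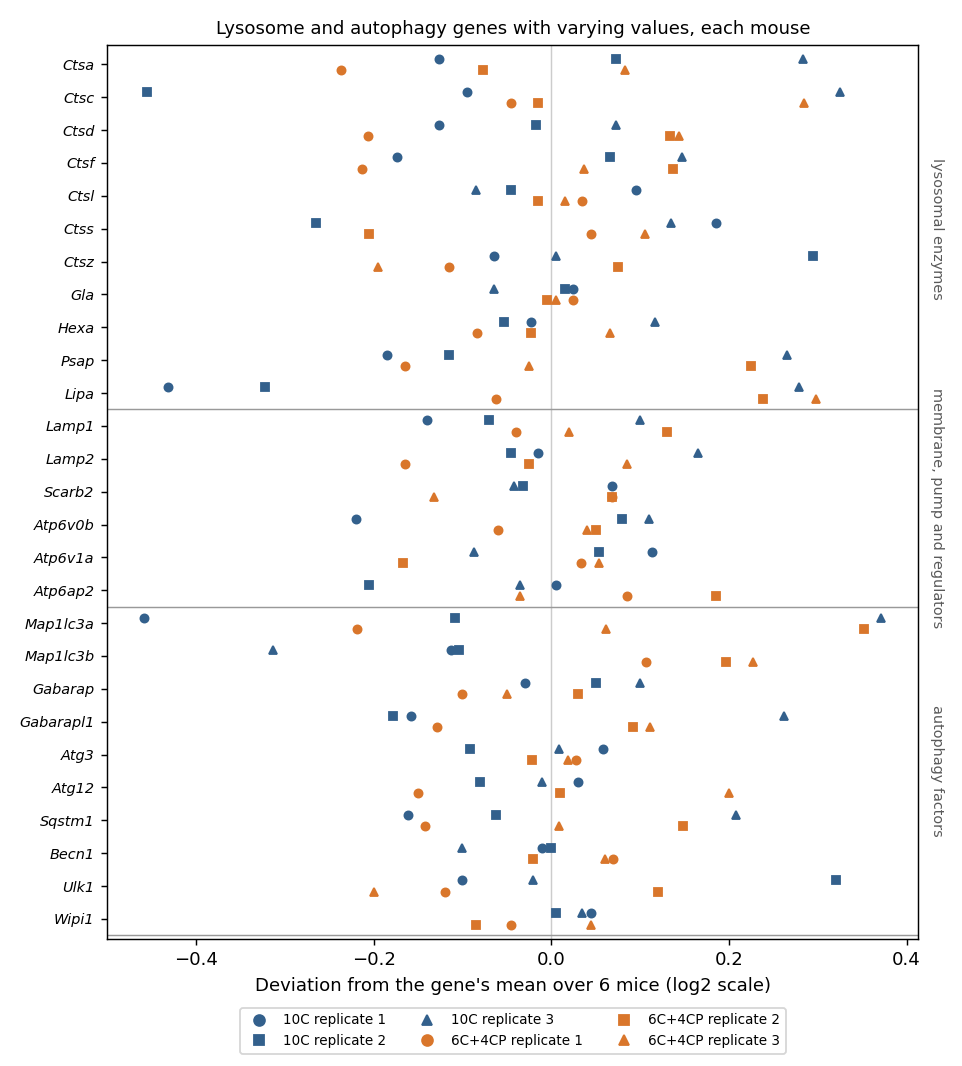
Each mouse's deviation from the gene's mean over 6 mice (log2 scale) for the 27 genes with varying values, blue for 10C and orange for 6C+4CP, with shapes for replicates. The colours separate for Map1lc3b, and 10C replicate 3 is the highest mouse of its diet in 14 genes.

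Other genes of the same pathways, listed from textbook roles, included differences wider than any among the 40. Of 62 further lysosomal and nutrient-sensing genes 55 were measured and 24 varied, 16 with higher and 8 with lower means in 6C+4CP and a median of 0.059. Limma over all genes called 0 of the 55. Of the 24 varying genes 2 had an unadjusted p under 0.05 in that fit, against 12.4% of all varying genes. In the fit to varying genes alone it was 5 of the 24, against 14.4%. The diets did not overlap in 6 higher and 1 lower of the 24, against 10.9% and 8.84% of all varying genes. Ctse, an aspartic protease of endosomes, read 7.84, 7.69 and 7.85 in 10C and 8.36, 8.69 and 8.62 in 6C+4CP. The diets lay well apart, by 0.76 (SE 0.11), a ratio of 1.7, with an adjusted p of 0.303 in limma over all genes and 0.0972 over varying genes.

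Arsa, the sulfatase that removes sulfate from sulfatide, read 8.18, 8.21 and 7.70 in 10C and 8.95, 8.67 and 8.72 in 6C+4CP. Its lowest mouse was 10C replicate 3, and the difference was 0.75 (SE 0.19) with it and 0.58 without it. Manba, beta-mannosidase, read 6.85, 7.13 and 7.07 in 10C and 7.46, 7.35 and 7.15 in 6C+4CP, a mean gap of 0.30 (SE 0.12) in which the nearest mice of the diets were close. The pump subunit Atp6v1c1 read 8.34, 8.45 and 8.15 in 10C and 8.82, 8.52 and 8.49 in 6C+4CP, again 0.30 between the means (SE 0.14) with a narrow gap between the nearest mice.

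The amino acid sensing kinase that acts on the lysosomal surface went in different directions by subunit. Mtor, the kinase itself, read 8.02, 8.23 and 8.21 in 10C and 8.33, 8.34 and 8.30 in 6C+4CP, and the means differed by 0.17 (SE 0.065). Rptor, its scaffold raptor, read 7.49, 7.76 and 7.74 in 10C and 7.45, 7.47 and 7.39 in 6C+4CP, and the means differed by -0.23 (SE 0.091). In both the diets did not overlap, and neither passed limma over all genes (adjusted p = 0.664 for each). Rragc, a GTPase that docks the kinase, was looked up after its values were seen because it was the remaining gene without overlap, and it differed by 0.089 (SE 0.045).

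Of 51 further autophagy genes 49 were measured and 19 varied, 8 with higher and 11 with lower means and a median of -0.0066. Limma over all genes called 0 of the 49. Of the 19 varying genes 1 had an unadjusted p under 0.05 in that fit, against 12.4% of all varying genes. In the fit to varying genes alone it was 3 of the 19, against 14.4%. The diets did not overlap in 2 higher and 0 lower of the 19, against 10.9% and 8.84%. Bnip3, a mitophagy receptor, read 11.12, 10.94 and 11.49 in 10C and 11.55, 11.80 and 11.59 in 6C+4CP. 10C replicate 3 lay just below the 6C+4CP mice, and the difference was 0.47 (SE 0.18), or 0.62 without that mouse. Vamp8, a SNARE that fuses autophagosomes with lysosomes, read 10.18, 10.18 and 10.17 in 10C and 10.25, 10.26 and 10.29 in 6C+4CP, a small difference of 0.089 (SE 0.010; adjusted p = 0.205 in limma over all genes).

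The remaining genes of this kind overlapped between the diets. Foxo3, a transcription factor that induces autophagy genes, read 7.88, 8.19 and 8.18 in 10C and 7.67, 7.92 and 7.80 in 6C+4CP, and the means differed by -0.28 (SE 0.12). Ulk2, the sister kinase of Ulk1, read 8.23, 8.29 and 8.59 in 10C and 8.61, 8.58 and 8.59 in 6C+4CP, where 10C replicate 3 stood with the other diet. Trp53inp1, which binds LC3 proteins, read 9.19, 9.37 and 9.29 in 10C and 9.29, 9.52 and 9.55 in 6C+4CP (difference 0.17, SE 0.096). Zfyve1, a marker of the site where autophagosomes form, read 7.72, 7.78 and 7.76 in 10C and 7.58, 7.79 and 7.55 in 6C+4CP (difference -0.12, SE 0.076). In Trp53inp1 and Zfyve1, 1 mouse fed 6C+4CP kept the diets from separating.

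**Figure D5:**
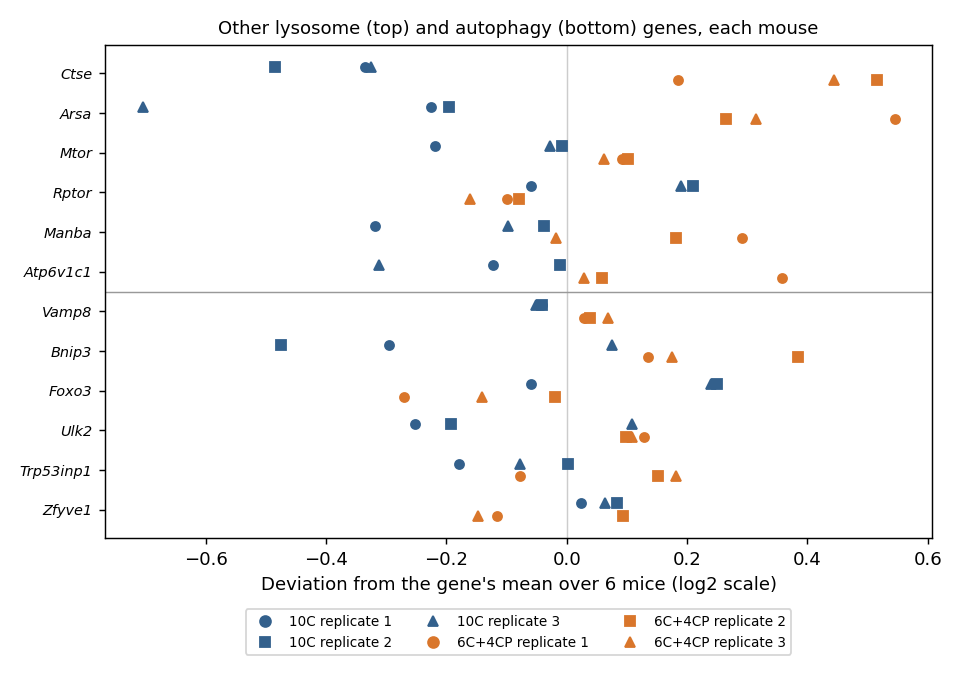
Each mouse's deviation from the gene's mean over 6 mice (log2 scale) for 6 further lysosomal genes and 6 further autophagy genes with the smallest p in their list, blue for 10C and orange for 6C+4CP. Ctse and Arsa show the widest gaps between the diets, 0.76 and 0.75 between the means, while Ulk2 and Foxo3 overlap.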

How the data were processed

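Total RNA of 6 livers, 3 per diet, was labelled from 100 ng with a 3' IVT kit, 1 array per mouse, per the labels' protocols. Only the authors' deposited values on a log2-like scale were used. The submitters' processing notes name R 2.7.2, while the sources used here do not state the log base or how probes were summarised. Signal over background is not part of this table, so the number of arrays limits the precision. Of 45101 probe sets 64 Affymetrix controls were left out. Groups follow the sample titles.

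The test was limma (version 3.58.1, run in R 4.3.3; lmFit, eBayes without trend, no covariates, two-sided), fitted over all probe sets and over 1 probe set per gene, with Benjamini-Hochberg adjustment and a threshold of 0.05. SEs and 95% intervals are limma's moderated ones. A gene was described by its brightest probe set ranging over more than 0.01, or its brightest where none did. The fit was tested on simulated data.

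Every one of the 40 genes is named. Values per mouse are given for those without overlap and for up to 4 per role by smallest p, and of the further lists for the 6 of smallest p each. The members and lists were chosen with earlier results of these data known. Alternatives were a replicate block, leaving out each mouse, quantile normalization, median centring, the brighter probe sets, varying probe sets alone, a range of 0.1, a trended robust fit, and other choices of a gene's probe set.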

Additional observations from a re-analysis of the deposited data

How the results depend on the processing

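The counts of member probe sets, member genes and further pathway genes called stayed at 0 under every alternative run, with 1 exception. Without 6C+4CP replicate 1, limma over all probe sets called 2 member probe sets, of Tfeb and Ctsl (range 0 to 2 without 1 mouse). Neither varies, and their differences were 1e-09. In all, that fit called 303 of 45037 probe sets, of which 9 varied. The number of varying genes without overlap, 1 in all mice, ran from 2 to 5 without 1 mouse: 5 when 10C mouse 1 or 3 or 6C+4CP mouse 2 was left out, 4 for 6C+4CP mouse 3, and 2 for 10C mouse 2 or 6C+4CP mouse 1. Fewer mice can overlap less often by construction. The share among all varying genes without 1 mouse is not given here, so these counts show nothing particular to the members. The medians stayed within the spread between mice, from -0.033 to 0.024 for enzymes and from -0.035 to 0.069 for autophagy genes.

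The replicate numbers were not taken to pair the mice. Deviations of same-numbered mice correlated at 0.48, -0.09 and 0.08 across varying probe sets. Those of differently numbered mice ran from -0.57 to 0.40. With the replicate number as a block 0 members were called, with 3 probe sets in all against 109 without it.

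Of the 40 genes whose differences were recomputed (the 27 varying members and 13 further pathway genes), 23 kept the sign in every alternative, Map1lc3b among them (0.28 to 0.39 without 1 mouse). Lamp2 turned to 0.0002 with the mean of its probe sets. Signs turned without 1 mouse, with these ranges: Ctsc -0.043 to 0.35, Ctsd -0.013 to 0.16, Ctsf -0.12 to 0.074, Ctsl -0.0091 to 0.08, Ctss -0.18 to 0.055, Gla -0.0096 to 0.038, Hexa -0.069 to 0.024, Psap -0.087 to 0.16, Scarb2 -0.031 to 0.072, Atp6v1a -0.11 to 0.018, Atp6v0b -0.084 to 0.076, Map1lc3a -0.065 to 0.35, Gabarapl1 -0.033 to 0.19, Atg3 -0.027 to 0.049, Atg12 -0.051 to 0.12 and Sqstm1 -0.068 to 0.12. None of these 16 genes, as represented by the probe set described, passed in any of these settings. In a check chosen after seeing the data, varying probe sets alone without each mouse in turn, 0 member genes were called. Few genes were called at all in these fits, from 0 to 21 of the 5057 varying genes.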
